A study of Mus musculus with 12 samples.

Results

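The chemokine ligands are the secreted or membrane-bound proteins that attract cells through chemokine receptors, and their transcripts were measured in sorted thymic epithelial cells (TEC). A gene was taken as a member when its symbol in the table of normalised values began with Ccl, Cxcl, Cx3cl or Xcl followed by a digit, or was Pf4 or Ppbp, which gave 43 of 34677 genes. Bulk RNA-Seq was performed on 12 libraries, 3 in each of 4 groups: cortical TEC (cTEC) and medullary TEC (mTEC) of WT mice and of Aβ0/0 mice. In Aβ0/0 mice (AB0 in the labels) the gene of the MHC class II β chain, H2-Ab1, is disrupted in the germline, so that every cell of the mouse lacks MHC class II and CD4+ T cells are scarce. Each library came from a pool of 5 to 10 mice of 4 to 6 weeks of age. After magnetic depletion of CD45+ cells, the sort took EpCAM+CD45- cells, those with Ly51 and without UEA1 as cTEC and those with UEA1 and without Ly51 as mTEC, and at each replicate number fewer cells of each subset were obtained from Aβ0/0 than from WT mice. The cTEC and mTEC with the same genotype and replicate number came from one sort. Library values are given in the order of replicates 1, 2 and 3.

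Chemokines set where developing T cells go in the thymus. Cortical epithelium makes Ccl25 and Cxcl12, which act on Ccr9 and Cxcr4 of progenitors and of CD4+CD8+ thymocytes, while medullary epithelium makes the Ccr7 ligands Ccl19 and Ccl21a, which draw positively selected thymocytes into the medulla. Other medullary ligands act on dendritic cells, regulatory T cells and B cells, and the scavenging receptor Ackr4 removes Ccl19, Ccl21 and Ccl25 in the cortex.

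Chemokines are named after the cysteines near the start of the mature protein. The coding bases around these cysteines are shown for the leading CC ligand of each subset, the leading CXC ligand of cTEC and the single XC and CX3C ligands, since these differences define the classes, as 18 bases on either side of the motif in the GENCODE M21 transcripts (GRCm38), 5′ to 3′ on the coding strand with the cysteine codons in capitals.
Ccl25, CC, chr8:4349891-4353920, plus strand, across an intron: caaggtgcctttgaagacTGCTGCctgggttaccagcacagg
Ccl21a, CC, chr4:42773717-42773758, minus strand: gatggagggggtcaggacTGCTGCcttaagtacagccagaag
Cxcl12, CXC, chr6:117171490-117171534, plus strand: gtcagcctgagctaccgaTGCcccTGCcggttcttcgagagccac
Xcl1, C, chr1:164932957-164932995, minus strand: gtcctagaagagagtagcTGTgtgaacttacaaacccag
Cx3cl1, CX3C, chr8:94778033-94778083, plus strand: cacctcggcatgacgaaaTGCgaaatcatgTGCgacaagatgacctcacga
The codons are adjacent in the CC ligands, separated by 1 codon in Cxcl12 and by 3 in Cx3cl1, and Xcl1 has a single cysteine codon here.

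Before the ligands, the labels and the sort were checked. H2-Ab1 was at 6503, 7003 and 10032 CPM (counts divided by the library size, scaled with TMM over the 12 libraries) in WT cTEC and 2157, 3714 and 2744 CPM in Aβ0/0 cTEC, and at 9027, 11193 and 10487 against 1899, 3851 and 2923 CPM in mTEC, so that it was lower in every Aβ0/0 library but not absent. The disrupted part of the gene is not given in the sources used here, which limits how far this count over the whole gene checks the labels. Library totals lay between 21710319 and 36139815 estimated counts. The 7 cTEC markers summed to 3731 to 9454 TPM (transcript abundance corrected for length, with the same sum in every library) in WT cTEC, where replicate 3 was the lowest, to 8244 to 12088 TPM in Aβ0/0 cTEC and to less than both in every mTEC library. Aire and Fezf2 in cTEC were at 0.173% to 1.90% and 0.936% to 3.34% of their mTEC mean in the same genotype. Granulocyte markers summed to 1404 to 2004 TPM in WT mTEC and 187 to 426 TPM in Aβ0/0 mTEC, and markers of dendritic cells, macrophages and B cells to 634 to 694 and 108 to 744 TPM. In these bulk samples, fewer cells of a type and less RNA per cell cannot be told apart.

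Of the 43 members, 39 had a count in at least 1 library and 25 had one in all 12. Ccl19-ps3, Ccl21b, Ccl21c and Ccl26 had no count in any library. Chemokine transcripts made up 0.479% to 0.765% of the transcripts in WT cTEC, 0.656% to 1.23% in Aβ0/0 cTEC, 1.99% to 2.53% in WT mTEC and 2.54% to 3.61% in Aβ0/0 mTEC. The summed level was 3.78 times as high in mTEC as in cTEC of WT mice and 3.48 times in Aβ0/0 mice, and without Ccl21a the ratios were 1.33 and 0.777. Most of the mTEC total was 1 gene, as Ccl21a held 72.1% to 78.7% of the chemokine TPM in WT mTEC and 80.7% to 87.1% in Aβ0/0 mTEC.

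Per length of transcript, the order of the members differed between cortex and medulla. In cTEC, Ccl25 was the highest on average, at 2136 ± 329 TPM (SD, n = 3) in WT and 3694 ± 1977 TPM in Aβ0/0, followed by Ccl21a at 1874 ± 1067 and 2978 ± 1255 TPM and Cxcl12 at 1223 ± 489.7 and 1686 ± 205 TPM. The ranges of Ccl25 and Ccl21a overlapped within each genotype, and those of Ccl21a and Cxcl12 did too, so the order of these neighbours was not set apart from the spread between libraries. In mTEC, Ccl21a reached 17450.0 ± 2837 TPM in WT and 27041 ± 5695 TPM in Aβ0/0, above Ccl19 at 1255 ± 60.1 and 1349 ± 346 TPM in every library. Below Ccl19, the next members of WT mTEC were Cxcl10 at 694 ± 135, Ccl25 at 550.4 ± 82.4 and Ccl27a at 449.6 ± 56.9 TPM. In Aβ0/0 mTEC they were Ccl20 at 515 ± 434, Ccl19-ps1 at 508 ± 153 and Cxcl10 at 451 ± 67.1 TPM, whose ranges overlapped.

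**Figure D1:**
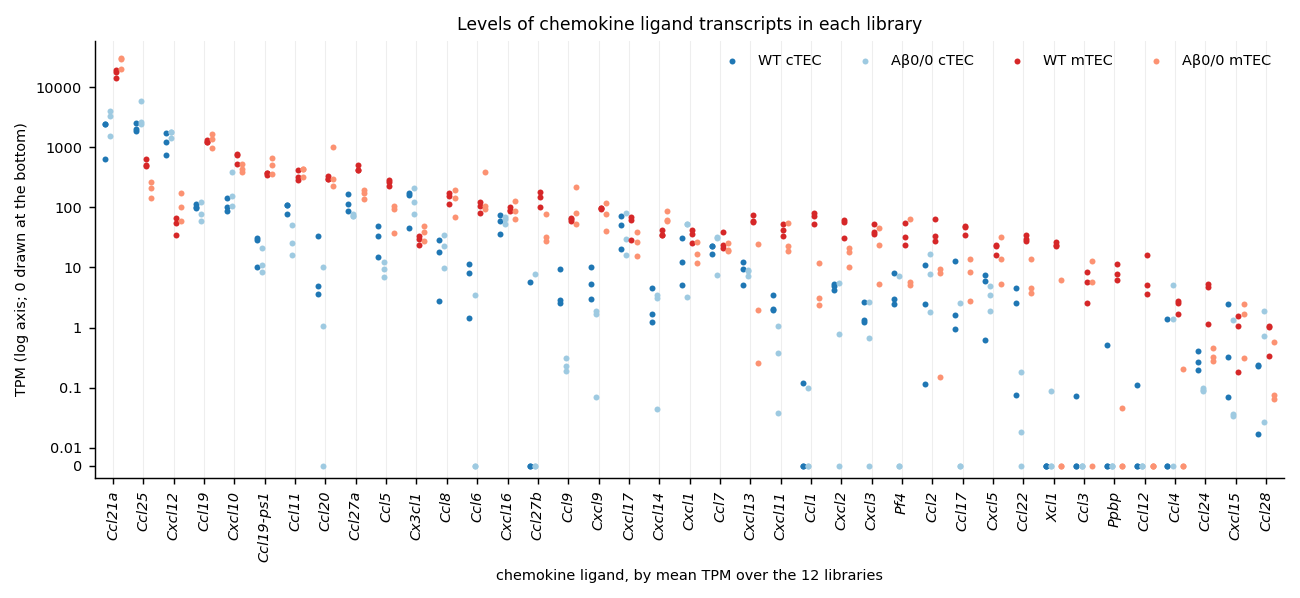
Level of each chemokine ligand with a count, in TPM on a log axis, 1 point per library and 1 colour per group (3 libraries each); libraries at 0 are drawn at the bottom edge. Ccl21a stands above all other members in the 6 mTEC libraries, and Ccl25, Ccl21a and Cxcl12 above the rest in the 6 cTEC libraries.

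The first comparison asked which ligands distinguish medullary from cortical epithelium. In WT mice most ligands were higher in mTEC, and Ccl25, Cxcl12 and Cx3cl1 were higher in cTEC. Of 39 members tested, 30 passed an adjusted p of 0.05 in edgeR's quasi-likelihood test (27 higher in mTEC and 3 in cTEC), beside 26.8% of all genes tested (18.0% higher in mTEC and 8.81% in cTEC). The 3 mTEC and 3 cTEC libraries did not overlap for 35 members (32 higher in mTEC and 3 in cTEC), as for 47.2% of all genes (30.1% and 17.2%), and 33 members had an unadjusted p under 0.05, beside 37.2% of all genes. Members had a median log2 difference of 3.04, and all genes of 0.06. The members that did not pass were Ccl2, Ccl4, Ccl7, Ccl17, Ccl28, Cxcl1, Cxcl15, Cxcl16 and Cxcl17. Of these, DESeq2 called Ccl2, Ccl17 and Cxcl16, and edgeR called Ccl2, Ccl4 and Cxcl1 without cTEC replicate 1, Cxcl16 without cTEC replicate 2 and Ccl2 and Ccl17 without cTEC replicate 3. With limma on the rlog values 19 members passed, and Ccl21a (adjusted p = 0.0607) and Cx3cl1 (adjusted p = 0.105) were among those lost. In edgeR's fit on all 12 libraries 21 passed. Among those lost were Ccl3 (adjusted p = 0.0557), Ccl6 (adjusted p = 0.0594), Cxcl2 (adjusted p = 0.0843) and Cxcl13 (adjusted p = 0.128). When each library was left out in turn, 23 to 32 members passed, and the calls of Ccl8, Ccl22, Ccl24, Ccl27b, Cxcl5, Pf4 and Ppbp were lost in at least 1 of these fits.

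In Aβ0/0 mice, 33 members could be tested and 16 passed (13 higher in mTEC and 3 in cTEC), beside 5.60% of all genes (3.45% and 2.15%). The 3 higher in cTEC were again Ccl25, Cxcl12 and Cx3cl1. With limma on the rlog values only Ccl9, Ccl19 and Ccl19-ps1 passed, and the adjusted p was 0.0665 for Ccl25, 0.0678 for Cxcl12, 0.137 for Cx3cl1 and 0.0975 for Ccl21a. Members that passed only in other settings were Ccl3, Ccl8, Ccl27a, Cxcl3 and Cxcl5 with DESeq2, Ccl3 and Ccl27a in edgeR's fit on all 12 libraries, Ccl8 in edgeR with the replicate number as a block and Cxcl10 in edgeR without cTEC replicate 1. Libraries of the subsets did not overlap for 24 members (21 higher in mTEC and 3 in cTEC), as for 27.8% of all genes (15.1% and 12.7%), and 21 had an unadjusted p under 0.05, beside 17.8% of all genes. The median log2 differences were 3.37 for the members and 0.03 for all genes. All 16 had also passed in WT, while 14 members passed in WT alone, which does not show that the subsets differed less in Aβ0/0. The direction was the same in both genotypes for 29 of the 33, the others being Ccl2, Ccl28, Cxcl1 and Cxcl17. With the sort as a block, 10 members passed in Aβ0/0: Ccl1, Ccl5, Ccl6, Ccl20, Ccl22, Cxcl11 and Cxcl14 were lost and Ccl8 was gained, the lost members having an adjusted p between 0.0592 and 0.124 (edgeR). In WT the same block left 28, without Ccl24 and Cxcl5. Leaving out 1 library left between 8 and 11 calls, namely 8 without cTEC replicate 1 or 3 or mTEC replicate 2 or 3, 9 without mTEC replicate 1 and 11 without cTEC replicate 2. The calls of Ccl1, Ccl5, Ccl6, Ccl11, Ccl20, Ccl21a, Ccl22, Cx3cl1, Cxcl9, Cxcl11 and Cxcl14 were lost in at least 1 of these fits.

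**Figure D2:**
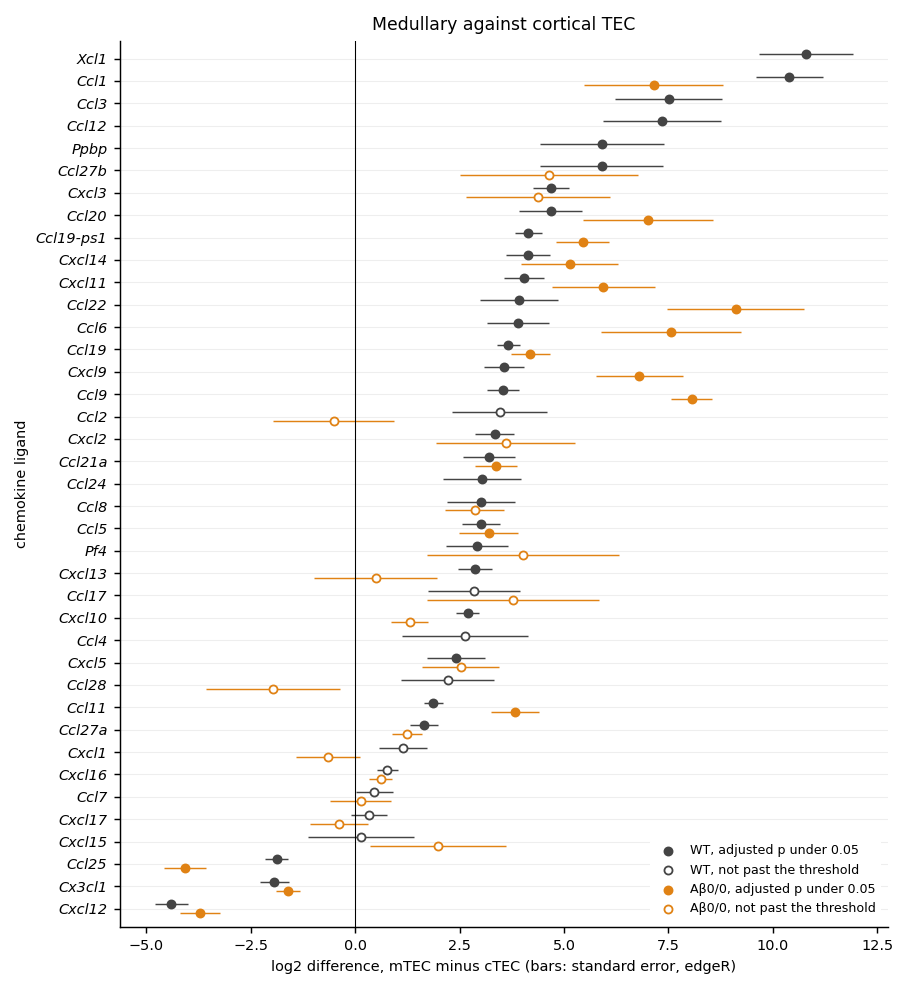
Log2 difference between mTEC and cTEC with its standard error for each member tested, in WT (dark) and Aβ0/0 mice (orange), each from 3 libraries per subset; filled symbols had an adjusted p under 0.05 (edgeR). Most members lie to the mTEC side in both genotypes, and Ccl25, Cxcl12 and Cx3cl1 lie to the cTEC side.

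The cortical ligands were not absent from the medulla. Ccl25 was at 1237, 1562 and 1785 CPM in WT cTEC and 343, 519 and 385 CPM in WT mTEC. The Aβ0/0 libraries were at 1460.5, 4841 and 1779.7 CPM in cTEC and 178, 134 and 169 CPM in mTEC. No mTEC library reached the lowest cTEC library, and Aβ0/0 cTEC replicate 2 stood far above the other cTEC libraries. The log2 difference of mTEC from cTEC was -1.88 ± 0.28 (edgeR, adjusted p = 0.00295) in WT and -4.07 ± 0.51 (edgeR, adjusted p = 0.00650) in Aβ0/0. Exons of Ccl25 overlap those of Elavl1 on the opposite strand, although the transcript Ccl25-201 held 97.2% to 98.8% of the counts of the gene.

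Cxcl12, the ligand of Cxcr4, showed the largest cortical excess in WT. It was at 1497, 2109 and 1367 CPM in WT cTEC, against 46.7, 87.1 and 102 CPM in WT mTEC. The Aβ0/0 libraries were at 1701, 2821 and 2388 CPM in cTEC and 77.2, 186 and 267 CPM in mTEC. The log2 differences were -4.40 ± 0.39 (edgeR, adjusted p = 0.000468) in WT and -3.71 ± 0.47 (edgeR, adjusted p = 0.00685) in Aβ0/0. Fibroblasts also make Cxcl12, and the 6 fibroblast markers summed to 1644 to 2523 TPM in WT cTEC and 1734 to 2423 TPM in Aβ0/0 cTEC, against 113 to 163 and 143 to 265 TPM in mTEC. Dcn made up most of these sums, Pdgfra stayed between 0 and 1.50 TPM in cTEC, and none of the 6 markers was at 0 in every library of a group. Their part in the result was not tested.

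Cx3cl1, a membrane-bound ligand on a mucin-like stalk that is recognised by Cx3cr1, was at 310.1, 367 and 147 CPM in WT cTEC and 74.6, 65.1 and 75.2 CPM in WT mTEC. Its values in Aβ0/0 mice were 391, 213 and 278 CPM in cTEC and 96.0, 89.1 and 105 CPM in mTEC. Every cTEC library was above every mTEC library. The log2 difference of mTEC from cTEC was -1.94 ± 0.34 (edgeR, adjusted p = 0.00592) in WT and -1.61 ± 0.29 (edgeR, adjusted p = 0.0212) in Aβ0/0. Cx3cl1 lies between the Ccr4 ligands Ccl22 and Ccl17 on chromosome 8 (94745590 to 94812036, GRCm38), starting 20.3 kb beyond Ccl22 and ending 28.0 kb before Ccl17, which were not higher in cTEC in any comparison.

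The Ccr7 ligands were the most abundant in the medulla and were measured in cTEC as well. Ccl21a was at 7735, 11605 and 12211 CPM in WT mTEC and 10976, 23655 and 18917 CPM in Aβ0/0 mTEC. The cTEC libraries were at 316, 1244 and 1874 CPM in WT and 746, 2589 and 1817 CPM in Aβ0/0, the lowest value being replicate 1 in both genotypes. The log2 difference of mTEC from cTEC was 3.20 ± 0.62 (edgeR, adjusted p = 0.00779) in WT and 3.37 ± 0.51 (edgeR, adjusted p = 0.0125) in Aβ0/0. Ccl19, on the same locus of chromosome 4 (Ccl19 at 42754525 to 42756577 and Ccl21a at 42772860 to 42773993, GRCm38, both on the minus strand), showed the same order. It was at 495, 605 and 622 CPM in WT mTEC and 34.8, 44.1 and 57.2 CPM in WT cTEC (log2 difference 3.66 ± 0.28, edgeR adjusted p = 0.000294). Its Aβ0/0 libraries were at 376, 925 and 651 CPM in mTEC and 20.3, 37.5 and 48.1 CPM in cTEC (log2 difference 4.20 ± 0.46, edgeR adjusted p = 0.00445). No mTEC library overlapped the cTEC libraries for either gene. As a share of the mean of the mTEC libraries with the same genotype, single cTEC libraries held 3.01% to 17.8% of Ccl21a and 3.12% to 9.96% of Ccl19. The medullary regulators Aire and Fezf2 gave the smaller shares above, and the medullary genes Fgf21 and Tnfrsf11a 0.0448% to 3.32% and 0.831% to 6.48%. In replicate 1, the share of Tnfrsf11a was above that of Ccl21a in both genotypes, at 6.48% against 3.01% in WT and 5.45% against 4.18% in Aβ0/0. The part of mTEC in the cortical Ccl21a was not tested.

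The mouse has several near-identical copies of Ccl21a. In GRCm38, Gm21541 (Ccl21d in RefSeq), which is not a member and was looked at after its values were seen, has a coding sequence of 399 bases that is 99.5% identical to that of Ccl21a, with the substitutions T84A and C194T counted from the first coding base of Ccl21a. The coding bases around both positions are shown with the differing base in capitals, since they are what separates coding reads of the copies. Each window is taken from the transcript and spans an intron.
Ccl21a, position 84, chr4:42773727-42773855, minus strand: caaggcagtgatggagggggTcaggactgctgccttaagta
Gm21541, position 84, chr4:41903748-41903876, plus strand: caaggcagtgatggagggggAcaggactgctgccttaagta
Ccl21a, position 194, chr4:42773523-42773657, minus strand: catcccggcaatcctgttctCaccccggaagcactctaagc
Gm21541, position 194, chr4:41903946-41904080, plus strand: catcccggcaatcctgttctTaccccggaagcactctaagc
Ccl21b and the copies Gm13304 and Gm10591 have the same pair of substitutions and had no count, so that the value of Gm21541 may stand for any of them. Over the transcripts of 870 bases, Ccl21a and Gm21541 differ at 6 positions.

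Of the counts assigned to Ccl21a and Gm21541 together, Gm21541 held 23.4% to 30.5% in mTEC and 3.34% to 12.5% in cTEC. Every mTEC library was above every cTEC library, and WT cTEC replicate 1, with the least Ccl21a, had the highest cortical share. Single cTEC libraries held 0.644% to 2.25% of the mTEC mean of Gm21541 in the same genotype. Summing the copies of Ccl21a, Ccl19 and Ccl27a before the fit left 28 calls among 37 tested in WT and 15 among 31 in Aβ0/0, and adding Gm21541, Gm13304 and Gm10591 to Ccl21a alone, which was chosen after seeing the data, left 30 and 16. Ccl19 also has a transcribed copy, the pseudogene Ccl19-ps1, at 57.8, 61.3 and 63.4 CPM in WT mTEC and 53.6, 145 and 91.0 CPM in Aβ0/0 mTEC, against 1.29 to 4.16 CPM in cTEC. Its share of both was 2.62% to 13.5%, and its own log2 difference was 4.15 ± 0.33 (edgeR, adjusted p = 0.000318) in WT and 5.44 ± 0.64 (edgeR, adjusted p = 0.00513) in Aβ0/0. How kallisto divides reads between such copies is uncertain.

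Within Ccl19, the transcript Ccl19-201 held 38.5% to 57.6% of the counts in WT mTEC and 6.89% to 14.8% in Aβ0/0 mTEC, with no overlap, and Ccl19-202 held most of the remainder. In cTEC the share of Ccl19-201 lay between 12.4% and 60.0% in WT and between 6.42% and 20.7% in Aβ0/0. These shares are estimates of kallisto for overlapping transcripts, and their difference was not tested.

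**Figure D3:**
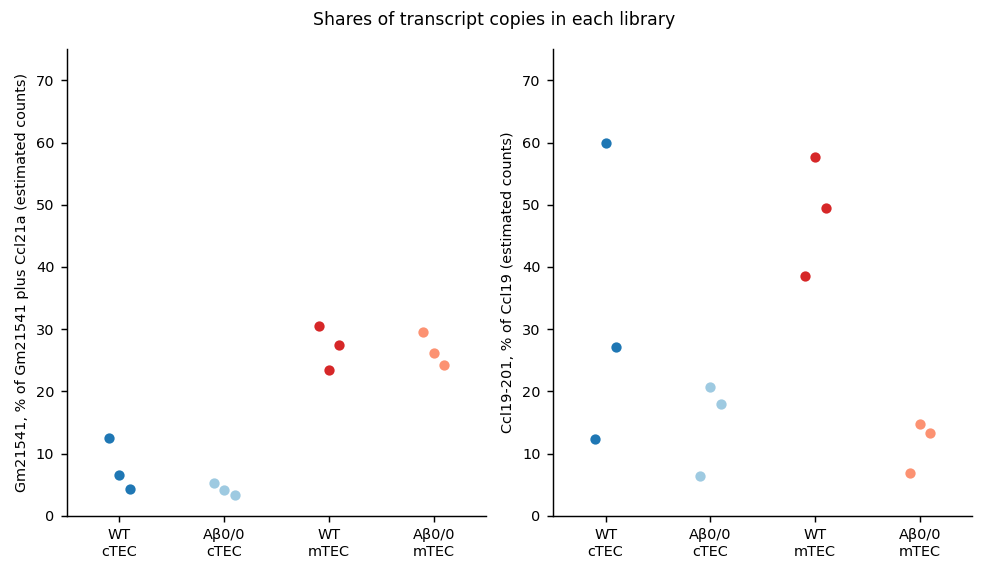
Share of Gm21541 in the counts of Gm21541 and Ccl21a, and of the transcript Ccl19-201 in the counts of Ccl19, in percent, 1 point per library and 3 libraries per group. The share of Gm21541 is higher in the 6 mTEC libraries than in the 6 cTEC libraries, and that of Ccl19-201 is higher in the 3 WT than in the 3 Aβ0/0 mTEC libraries.

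Ligands of Ccr8, Ccr4, Ccr6 and Xcr1, which act on regulatory T cells, mature thymocytes and dendritic cells, were largely medullary. Ccl1, a Ccr8 ligand, had counts of 490, 900 and 560 in WT mTEC and of 0, 1 and 0 in WT cTEC. That is a ratio of 1812-fold, with a 95% counting interval of 325 to 71622, which covers counting error only (edgeR, adjusted p = 0.000294). Its counts in Aβ0/0 mice were 17, 35 and 106 in mTEC and 0, 0 and 1 in cTEC, a ratio of 194-fold, with a 95% counting interval of 34.3 to 7699.8 (edgeR, adjusted p = 0.0487). Ccl8, which in the mouse also acts on Ccr8, was at 49.3, 50.2 and 35.8 CPM in WT mTEC and 0.699, 4.63 and 11.4 CPM in WT cTEC, with a log2 difference of 3.02 ± 0.81 (edgeR, adjusted p = 0.0273). In Aβ0/0 mice Ccl8 was at 19.0, 78.5 and 48.4 CPM in mTEC and 2.41, 7.80 and 9.75 CPM in cTEC, and its log2 difference of 2.86 ± 0.71 did not pass (edgeR, adjusted p = 0.0618).

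Xcl1, the ligand of Xcr1 on cross-presenting dendritic cells, had counts of 152, 299 and 246 in WT mTEC and none in WT cTEC. It was at least 216-fold higher in mTEC, taking 3 counts over the group as the floor (edgeR, adjusted p = 0.00208). Its counts in Aβ0/0 mTEC were 0, 0 and 57, so that 2 of the 3 libraries had none and the group overlapped Aβ0/0 cTEC, with counts of 0, 1 and 0. Exons of Xcl1 overlap those of Gm20743 on the opposite strand.

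The Ccr4 ligand Ccl22 was at 52.2, 49.4 and 52.7 CPM in WT mTEC and 3.58, 6.43 and 0.160 CPM in WT cTEC, a log2 difference of 3.92 ± 0.93 (edgeR, adjusted p = 0.0167). Aβ0/0 mTEC had it at 3.73, 29.1 and 8.18 CPM, and Aβ0/0 cTEC had counts of 1, 0 and 1, a ratio of 693-fold, with a 95% counting interval of 192 to 5733 (edgeR, adjusted p = 0.0221). Ccl17, the other Ccr4 ligand, was at 13.6, 16.5 and 11.2 CPM in WT mTEC and 0.411, 0.244 and 5.11 CPM in WT cTEC, where replicate 3 was high, and did not pass (log2 difference 2.85 ± 1.10, edgeR adjusted p = 0.0975) except in DESeq2 and in edgeR without that library. Ccl20, which acts on Ccr6, was at 169, 175 and 169 CPM in WT mTEC and 1.81, 14.8 and 3.31 CPM in WT cTEC (log2 difference 4.68 ± 0.75, edgeR adjusted p = 0.00417). In Aβ0/0 mTEC, Ccl20 was at 504, 210.0 and 134 CPM, against 0, 6.05 and 0.496 CPM in Aβ0/0 cTEC (log2 difference 7.02 ± 1.55, edgeR adjusted p = 0.0423). Replicate 1 was the highest library there, and it was also the highest in the sum of the 5 tuft cell markers, at 741 TPM against 141 and 134 TPM in replicates 2 and 3, all 5 markers having counts in each group. It was also the highest for markers of dendritic cells, macrophages and B cells (744 against 124 and 108 TPM), erythroid cells (511 against 186 and 75.5 TPM) and platelets (6.64 against 0.244 and 0.355 TPM). For granulocytes (350 against 426 and 187 TPM) and thymocytes (62.0 against 33.0 and 130 TPM) it was not. The part of these cells in the value was not tested.

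The 3 interferon-inducible ligands of Cxcr3 were present in both subsets, and 3 of 3 were higher in mTEC in WT and 2 of 3 in Aβ0/0. Cxcl10 was at 535, 667 and 439 CPM in WT mTEC and 101, 66.5 and 86.9 CPM in WT cTEC (log2 difference 2.69 ± 0.28, edgeR adjusted p = 0.000706). Among Aβ0/0 libraries it was at 283, 537 and 364 CPM in mTEC and 268, 91.4 and 115 CPM in cTEC, where replicate 1 came close to the lowest mTEC library, and the log2 difference of 1.30 ± 0.45 did not pass (edgeR, adjusted p = 0.166) unless that library was left out. Exons of Cxcl10 overlap those of Art3 on the opposite strand. Cxcl9 was at 115, 144 and 135 CPM in WT mTEC and 5.47, 8.29 and 19.7 CPM in WT cTEC. Aβ0/0 libraries held it at 41.7, 214 and 149 CPM in mTEC and 1.46, 1.97 and 0.138 CPM in cTEC, and the subsets did not overlap in either genotype. Its log2 difference was 3.56 ± 0.48 (edgeR, adjusted p = 0.00218) in WT and 6.80 ± 1.05 (edgeR, adjusted p = 0.0135) in Aβ0/0. Cxcl11, which the annotation calls a polymorphic pseudogene, was also higher in mTEC, with a log2 difference of 4.05 ± 0.48 (edgeR, adjusted p = 0.00127) in WT and 5.94 ± 1.24 (edgeR, adjusted p = 0.0367) in Aβ0/0. Its exons overlap those of Gm2673 on the opposite strand.

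Of the ligands that place B cells and tissue lymphocytes, Cxcl13, which acts on Cxcr5, was at 55.3, 52.5 and 48.0 CPM in WT mTEC and 8.31, 3.44 and 9.73 CPM in WT cTEC (log2 difference 2.86 ± 0.40, edgeR adjusted p = 0.00261). In Aβ0/0 mTEC its libraries were at 0.192, 25.6 and 1.73 CPM, on both sides of the Aβ0/0 cTEC libraries at 4.79, 7.71 and 6.75 CPM. Cxcl16, a membrane-bound ligand of Cxcr6, was at 100.4 to 155 CPM in mTEC and 60.4 to 104 CPM in cTEC and did not pass, apart from the settings named above, in WT (log2 difference 0.77 ± 0.26, edgeR adjusted p = 0.0601) or Aβ0/0 (log2 difference 0.61 ± 0.27, edgeR adjusted p = 0.296). Exons of Cxcl16 overlap those of Zmynd15 on the opposite strand.

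Neutrophil-attracting ligands of Cxcr2 were of low to moderate level. In WT mice, Cxcl3 was at 25.1, 42.3 and 26.8 CPM in mTEC and 1.65, 0.854 and 1.16 CPM in cTEC (log2 difference 4.69 ± 0.44, edgeR adjusted p = 0.000542), and Cxcl2 at 38.6, 45.5 and 22.8 CPM in mTEC and 1.81, 4.21 and 4.51 CPM in cTEC (log2 difference 3.34 ± 0.47, edgeR adjusted p = 0.00254). Cxcl5 was also higher in mTEC (log2 difference 2.41 ± 0.69, edgeR adjusted p = 0.0352), while Cxcl1, at 19.0 to 27.5 CPM in mTEC and 3.44 to 19.6 CPM in cTEC, did not pass in edgeR with all libraries. The platelet granule proteins Ppbp and Pf4 were higher in WT mTEC, with log2 differences of 5.91 ± 1.49 (edgeR, adjusted p = 0.0211) and 2.91 ± 0.75 (edgeR, adjusted p = 0.0228). Blood cell markers moved with these ligands in WT. Those of granulocytes summed to 24.3 to 510.5 TPM in cTEC and 1404 to 2004 TPM in mTEC, those of dendritic cells, macrophages and B cells to 34.9 to 356 and 634 to 694 TPM and those of platelets to 3.98 to 10.5 and 11.2 to 20.6 TPM. In WT cTEC, 1 of 7, 2 of 13 and 1 of 4 of these markers were at 0, and in WT mTEC none was. The subsets of Aβ0/0 mice also stood apart, at 27.1 to 80.7 TPM in cTEC and 187 to 426 TPM in mTEC for granulocytes and 9.25 to 45.2 and 108 to 744 TPM for dendritic cells, macrophages and B cells. Their part in the values of these ligands and of the inflammatory CC ligands was not tested. Between the subsets of Aβ0/0 mice, neither Pf4 nor any of the 4 Cxcr2 ligands tested passed in edgeR, with 2 of the ligands, Cxcl3 and Cxcl5, at an unadjusted p under 0.05 and called by DESeq2.

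Of the inflammatory CC ligands Ccl3, Ccl4, Ccl5, Ccl6 and Ccl9, 4 of 5 were higher in mTEC in WT, as was each of the 3 tested in Aβ0/0. Ccl9 was at 67.0, 92.2 and 77.7 CPM in WT mTEC and 3.58, 8.38 and 8.50 CPM in WT cTEC (log2 difference 3.53 ± 0.38, edgeR adjusted p = 0.000890), with no overlap. Aβ0/0 mice had it at 197, 95.4 and 117 CPM in mTEC and 0.407, 0.484 and 0.633 CPM in cTEC (log2 difference 8.06 ± 0.49, edgeR adjusted p = 0.000969), again with no overlap. Its neighbour Ccl6 was at 52.1, 91.6 and 80.1 CPM in WT mTEC and 0.823, 5.27 and 8.97 CPM in WT cTEC (log2 difference 3.89 ± 0.74, edgeR adjusted p = 0.00730). In Aβ0/0 mTEC, Ccl6 was at 248, 94.9 and 66.9 CPM, with 2 of the 3 Aβ0/0 cTEC libraries at 0 (log2 difference 7.57 ± 1.68, edgeR adjusted p = 0.0423). For both genes Aβ0/0 mTEC replicate 1 was the highest library, as it was for Ccl20. Ccl5 was at 84.3, 90.6 and 77.1 CPM in WT mTEC and 4.03, 13.4 and 14.0 CPM in WT cTEC (log2 difference 3.01 ± 0.46, edgeR adjusted p = 0.00340). Ccl3 had counts of 28, 103 and 141 in WT mTEC and 0, 1 and 0 in WT cTEC, a ratio of 253-fold, with a 95% counting interval of 45.0 to 10022 (edgeR, adjusted p = 0.00492). The Ccl3 counts of Aβ0/0 mTEC were 69, 234 and 0.

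Among the ligands of Ccr2 and Ccr3, Ccl11 (eotaxin) was the most abundant. It was at 219, 237 and 329.7 CPM in WT mTEC and 69.2, 69.7 and 75.9 CPM in WT cTEC (log2 difference 1.87 ± 0.23, edgeR adjusted p = 0.00147). The Aβ0/0 libraries were at 224, 436 and 359.7 CPM in mTEC and 9.88, 43.3 and 18.0 CPM in cTEC (log2 difference 3.83 ± 0.58, edgeR adjusted p = 0.0125). Ccl12 had counts of 25, 183 and 53 in WT mTEC and 0, 0 and 1 in WT cTEC, a ratio of 243-fold, with a 95% counting interval of 43.2 to 9618 (edgeR, adjusted p = 0.00746). Ccl24, another eotaxin, stayed at or below 3.24 CPM and was higher in WT mTEC (log2 difference 3.04 ± 0.94, edgeR adjusted p = 0.0462), a call that was lost with the sort as a block. The monocyte attractant Ccl2 ranged from 13.6 to 38.3 CPM in WT mTEC and Ccl7 from 11.6 to 22.3 CPM. Neither passed in edgeR, with the exceptions for Ccl2 given above.

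Of the 3 epithelial ligands of Ccr10, Ccl27a and Ccl27b were higher in WT mTEC, as was Cxcl14. Ccl27a was at 108, 155 and 122 CPM in WT mTEC and 34.5, 27.2 and 60.7 CPM in WT cTEC (log2 difference 1.66 ± 0.33, edgeR adjusted p = 0.00862). Its exons overlap those of Il11ra1 on the opposite strand, and its near copy Ccl27b, at 22.6, 38.6 and 44.5 CPM in WT mTEC, was higher there than in WT cTEC (log2 difference 5.90 ± 1.47, edgeR adjusted p = 0.0205). Ccl28 was at 2.52, 1.06 and 3.14 CPM in WT mTEC and 0.576, 0.0305 and 0.838 CPM in WT cTEC (log2 difference 2.22 ± 1.11, edgeR adjusted p = 0.192). In Aβ0/0 mice 0 of the 3 passed in edgeR's fit on the 6 libraries, with 1, Ccl27a, at an unadjusted p under 0.05 and called by DESeq2 and in edgeR's fit on all 12. The Aβ0/0 log2 differences were 1.24 ± 0.36 (edgeR, adjusted p = 0.0980) for Ccl27a, 4.64 ± 2.13 (edgeR, adjusted p = 0.314) for Ccl27b and, with cTEC the higher, -1.96 ± 1.61 (edgeR, adjusted p = 0.605) for Ccl28. Cxcl14, an epithelial chemokine, was at 42.7, 50.2 and 60.7 CPM in WT mTEC and 5.14, 1.34 and 2.27 CPM in WT cTEC (log2 difference 4.14 ± 0.52, edgeR adjusted p = 0.00162), and at 107, 107 and 85.8 CPM in Aβ0/0 mTEC and 3.73, 4.69 and 0.0551 CPM in Aβ0/0 cTEC (log2 difference 5.13 ± 1.15, edgeR adjusted p = 0.0440). The mucosal ligand Cxcl17 ranged from 7.44 to 38.0 CPM over the 12 libraries and Cxcl15 from 0.0551 to 4.30 CPM.

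The receptors of these ligands were examined from a list chosen with earlier results of these data known. In WT, 15 of 18 typical receptors were tested: Ccr2, Ccr4, Ccr6, Ccr7, Ccr10 and Cxcr5 were higher in mTEC and Ccr9 was lower. Ccr7 was at 29.2, 28.4 and 21.6 CPM in WT mTEC and 2.67, 4.27 and 2.79 CPM in WT cTEC (log2 difference 3.02 ± 0.37, edgeR adjusted p = 0.00142). Ccr9, the receptor of Ccl25, was at 44.4, 53.3 and 34.8 CPM in WT cTEC and 14.8, 19.6 and 20.6 CPM in WT mTEC (log2 difference -1.27 ± 0.27, edgeR adjusted p = 0.00998). Thymocytes carry Ccr9, and the 11 thymocyte markers summed to 239 to 557 TPM in WT cTEC and 70.0 to 151 TPM in WT mTEC, with none of the 11 at 0 in either group. The markers of granulocytes and of dendritic cells, macrophages and B cells were also higher in WT mTEC than in WT cTEC, with the sums given above. The part of these cells in the receptor values was not tested. In Aβ0/0 mice, 11 typical receptors were tested between the subsets and 0 passed in edgeR, with 2 at an unadjusted p under 0.05, Ccr4 (adjusted p = 0.0534) and Ccr9 (adjusted p = 0.0787).

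The atypical receptors take up chemokines without signalling through G proteins. Ackr4, which removes Ccl19, Ccl21 and Ccl25, was at 680.4, 716 and 791 CPM in WT cTEC and 14.2, 16.1 and 22.6 CPM in WT mTEC. The Aβ0/0 values were 588, 739 and 758 CPM in cTEC and 23.6, 25.2 and 43.4 CPM in mTEC. Its log2 difference of mTEC from cTEC was -5.37 ± 0.30 (edgeR, adjusted p = 0.000122) in WT and -4.51 ± 0.33 (edgeR, adjusted p = 0.00137) in Aβ0/0. Ackr3, a scavenger of Cxcl12, was also lower in WT mTEC (log2 difference -2.32 ± 0.33, edgeR adjusted p = 0.00267), at 5.93 to 11.8 CPM against 35.8 to 50.9 CPM in cTEC. Ackr2, which takes up inflammatory CC ligands, went the other way, with counts of 100, 74 and 61 in WT mTEC and none in WT cTEC, at least 72.8-fold higher in mTEC (edgeR, adjusted p = 0.00556). The ligand Ccl21a was high in mTEC, and the receptor that removes it was high in cTEC, in every library of both genotypes.

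The next comparison asked what the loss of MHC class II changed in mTEC. Ccl25, Ppbp and Ccl12 were higher in WT and Cxcl14 was higher in Aβ0/0. These were 4 of 39 members tested, beside 5.66% of all genes (5.32% higher in WT and 0.338% higher in Aβ0/0). At an unadjusted p under 0.05 there were 18 members, beside 15.3% of all genes. The WT and Aβ0/0 libraries did not overlap for 18 members (15 higher in WT and 3 in Aβ0/0), beside 26.4% of all genes (18.7% and 7.67%). The median log2 difference, WT minus Aβ0/0, was 0.71 for the members and 0.00 for all genes. These calls were sensitive to the choice of libraries: 0 members passed without any 1 of the WT replicates or without Aβ0/0 replicate 2 or 3, with 9 to 18 at an unadjusted p under 0.05 (edgeR), and 7 passed without Aβ0/0 replicate 1. By edgeR, 0 passed without the filter on low counts, with a minimum mean count of 10 or in the fit on all 12 libraries, with 18, 18 and 10 at an unadjusted p under 0.05, and DESeq2 called 10, the 4 and Ccl1, Ccl4, Ccl5, Ccl17, Ccl24 and Ccl27a. With the replicate number as a block, 0 passed in edgeR, with 16 at an unadjusted p under 0.05.

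Ccl25 was at 343, 519 and 385 CPM in WT mTEC and 178, 134 and 169 CPM in Aβ0/0 mTEC, without overlap. The log2 difference was 1.35 ± 0.23 (edgeR, adjusted p = 0.0352), and the adjusted p ranged from 4.71e-06 to 0.230 over the alternatives. Cxcl14 went the other way, at 42.7, 50.2 and 60.7 CPM in WT and 107, 107 and 85.8 CPM in Aβ0/0, a log2 difference of -0.99 ± 0.21 (edgeR, adjusted p = 0.0447) with a range of adjusted p from 0.000389 to 0.791. Ppbp had counts of 126, 318 and 155 in WT and 0, 0 and 1 in Aβ0/0, a ratio of 546-fold, with a 95% counting interval of 97.6 to 21602 (edgeR, adjusted p = 0.0352, range 3.52e-09 to 0.230). Ccl12 had counts of 25, 183 and 53 in WT and none in Aβ0/0, which made it at least 79.3-fold higher in WT (edgeR, adjusted p = 0.0468, range 2.52e-05 to 0.319). Marker sums of platelets and granulocytes were higher in WT without overlap, as were Ccl25, Ppbp and Ccl12 but not Cxcl14. Those of the other blood cell lists overlapped between the genotypes. The platelet granule gene Pf4 overlapped too, at 8.02, 17.9 and 12.1 CPM in WT and 18.5, 2.46 and 1.36 CPM in Aβ0/0. Platelet and megakaryocyte markers summed to 11.2 to 20.6 TPM in WT and 0.244 to 6.64 TPM in Aβ0/0 mTEC, where 1 of 4 (Gp1bb) was at 0, and of the granulocyte markers, with the sums given above, 2 of 7 (Ngp and Elane) were at 0. Markers of dendritic cells, macrophages and B cells summed to 634 to 694 TPM in WT mTEC and to 744, 124 and 108 TPM in Aβ0/0 mTEC, where 3 of 13 (Itgax, Clec9a and Adgre1) were at 0 although replicate 1 was above every WT library. Erythroid markers summed to 217 to 326 TPM in WT and 511, 186 and 75.5 TPM in Aβ0/0 mTEC. Without overlap between the genotypes in mTEC were also the sums of the 7 mTEC markers, at 2249 to 2959 TPM in WT and 1861 to 2087 TPM in Aβ0/0, of the 7 cTEC markers, at 851 to 1272 and 1341 to 1901 TPM, and of the 6 endothelial markers, at 18.2 to 26.4 and 8.33 to 15.9 TPM with 1 at 0 in Aβ0/0. Their part in the results was not tested.

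**Figure D4:**
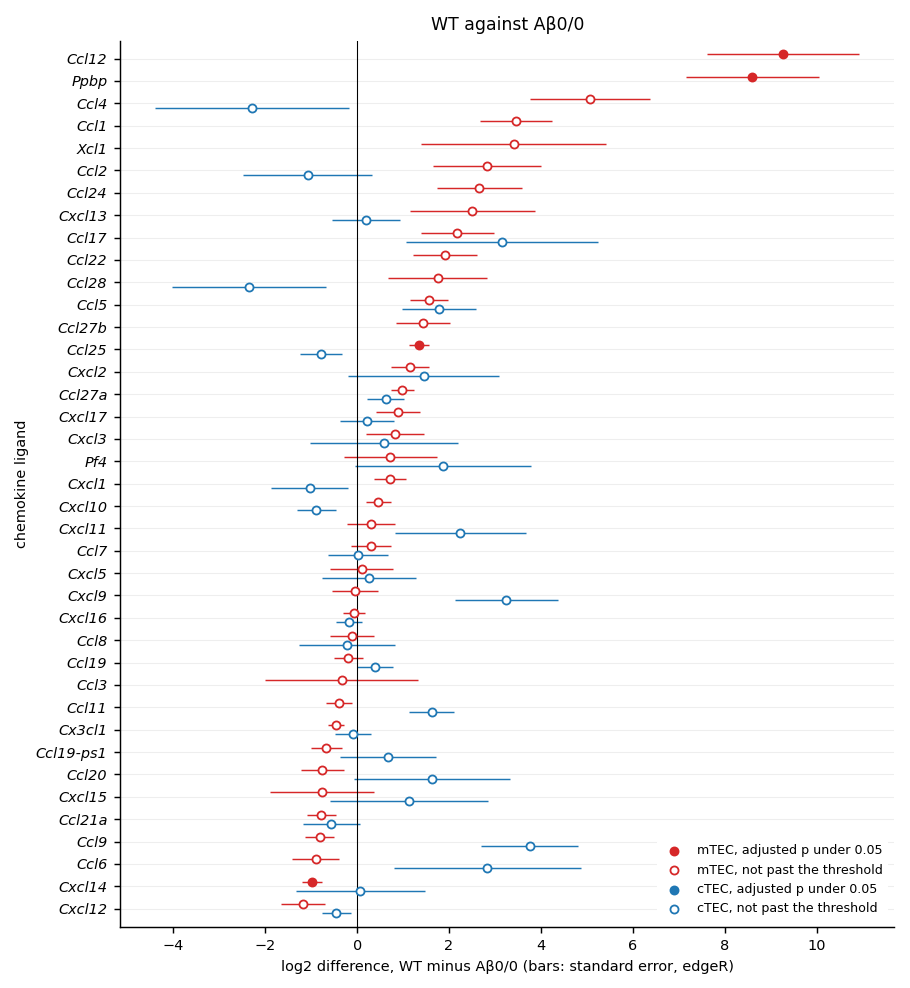
Log2 difference between WT and Aβ0/0 with its standard error for each member tested, in mTEC (red) and cTEC (blue), each from 3 libraries per genotype; filled symbols had an adjusted p under 0.05 (edgeR). The 4 filled symbols are Ccl12, Ccl25, Ppbp and Cxcl14 in mTEC, and no cTEC symbol is filled.

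Several ligands of regulatory T cells and dendritic cells did not overlap between the genotypes in mTEC without passing the adjusted threshold in edgeR, Ccl1, Ccl5 and Ccl17 being called by DESeq2. Ccl1 was at 20.9, 27.2 and 17.6 CPM in WT and 0.654, 1.25 and 3.99 CPM in Aβ0/0, with a log2 difference of 3.46 ± 0.78 just outside it (edgeR, adjusted p = 0.0520). Ccl22 was at 52.2, 49.4 and 52.7 against 3.73, 29.1 and 8.18 CPM (log2 difference 1.91 ± 0.69, edgeR adjusted p = 0.239) and Ccl17 at 13.6, 16.5 and 11.2 against 0.769, 5.56 and 2.79 CPM (log2 difference 2.18 ± 0.79, edgeR adjusted p = 0.239). Xcl1 was at 6.48, 9.03 and 7.72 CPM in WT and 0, 0 and 2.15 CPM in Aβ0/0 (edgeR, adjusted p = 0.525). For Ccl22 and Ccl5, the latter at 84.3, 90.6 and 77.1 against 27.9, 43.7 and 12.9 CPM (log2 difference 1.56 ± 0.42, edgeR adjusted p = 0.101), Aβ0/0 replicate 2 came closest to WT.

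Cxcl13 was at 55.3, 52.5 and 48.0 CPM in WT mTEC and 0.192, 25.6 and 1.73 CPM in Aβ0/0 mTEC, a spread within Aβ0/0 with a log2 difference of 2.51 ± 1.36 (edgeR, adjusted p = 0.477). Ccl27a was at 108, 155 and 122 against 46.3, 79.2 and 67.6 CPM (log2 difference 0.98 ± 0.25, edgeR adjusted p = 0.0829). The others without overlap and higher in WT, with their log2 differences, were Ccl2 (2.83 ± 1.18), Ccl24 (2.66 ± 0.93), Cxcl1 (0.71 ± 0.35), Cxcl2 (1.15 ± 0.42) and Ccl4, with counts of 15, 42 and 36 against 2, 0 and 0. Their adjusted p lay between 0.0875 and 0.420 (edgeR). Ccl27a, Ccl24 and Ccl4 were called by DESeq2. Besides Cxcl14, the members without overlap and higher in Aβ0/0 were Cx3cl1, at 96.0, 89.1 and 105 against 74.6, 65.1 and 75.2 CPM in WT (log2 difference -0.46 ± 0.18, edgeR adjusted p = 0.278), and Ccl9 (log2 difference -0.82 ± 0.31, edgeR adjusted p = 0.273).

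The abundant medullary ligands did not pass between the genotypes. Ccl21a gave a log2 difference of -0.78 ± 0.31 (edgeR, adjusted p = 0.294), in the direction of Aβ0/0, with WT replicate 3 above Aβ0/0 replicate 1, and Ccl19 gave -0.19 ± 0.31 (edgeR, adjusted p = 0.864), in the same direction except without Aβ0/0 replicate 2, where it was 0.13. Without Aβ0/0 replicate 1, Ccl21a passed at a log2 difference of -1.02 (edgeR, adjusted p = 0.0483), as did Ccl1, Ccl4 and Cxcl12, and Cxcl14 did not. Of the receptors, Cxcr6 and Ackr2 had no count in Aβ0/0 mTEC and were at least 46.8-fold and 71.4-fold higher in WT (edgeR, adjusted p = 0.0492 and 0.0352), and the other 18 receptors tested did not pass.

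In cTEC, 0 of 31 members tested passed between the genotypes in edgeR, beside 0.0194% of all genes, and 3 (Ccl9, Ccl11 and Cxcl9) had an unadjusted p under 0.05, beside 2.16% of all genes. DESeq2 called 2 members, Ccl9 and Ccl22, and edgeR called Ccl9 when all 12 libraries were fitted. Among the 31 members tested, the libraries did not overlap for Ccl9, Ccl11, Cxcl9 and Cxcl11, each higher in WT, beside 7.85% of all genes (4.35% higher in WT and 3.50% higher in Aβ0/0). Ccl11 was at 69.2, 69.7 and 75.9 CPM in WT and 9.88, 43.3 and 18.0 CPM in Aβ0/0 cTEC, a log2 difference of 1.62 ± 0.49. For Cxcl9 the values were 5.47, 8.29 and 19.7 CPM in WT and 1.46, 1.97 and 0.138 CPM in Aβ0/0, with a log2 difference of 3.25 ± 1.11. Cxcl11 was at 2.22, 2.41 and 6.02 CPM in WT and 0.882, 1.36 and 0.0275 CPM in Aβ0/0, with a log2 difference of 2.24 ± 1.42. Each of these had an adjusted p of 1.00 (edgeR). Marker sums that did not overlap between WT and Aβ0/0 cTEC were those of epithelium (3482 to 6786 and 6925 to 8039 TPM), thymocytes (239 to 557 and 649 to 799 TPM), endothelium (24.0 to 69.4 and 19.3 to 22.4 TPM) and platelets (3.98 to 10.5 and 0.408 to 3.66 TPM), and 1 and 2 of the 4 platelet markers were at 0. Their part in these values was not tested. The main cortical ligands gave log2 differences of -0.79 ± 0.45 for Ccl25, -0.45 ± 0.31 for Cxcl12 and -0.09 ± 0.39 for Cx3cl1.

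Whether the genotype effect differed between the subsets was tested on all 12 libraries. Of 39 members, 1 passed, Ccl9, beside 0.0103% of all genes (0.00514% in each direction), and 8 members had an unadjusted p under 0.05, beside 6.90% of all genes. From the values given above, Ccl9 was lower in Aβ0/0 than in WT cTEC (log2 difference WT minus Aβ0/0 3.75 ± 1.05) and higher in Aβ0/0 than in WT mTEC (-0.82 ± 0.31). The difference of these effects was -4.52 ± 0.55 (edgeR, adjusted p = 0.0321). With the sort as a block it was -4.37 and did not pass (edgeR, adjusted p = 0.178). It passed without WT cTEC replicate 1, Aβ0/0 mTEC replicate 1 (-4.10, edgeR adjusted p = 0.0229) or Aβ0/0 mTEC replicate 2, and was lost in the other 9 fits that left out 1 library, where the adjusted p lay between 0.0553 and 0.266 (edgeR). Ccl25 had a term of 2.19 ± 0.56 that did not pass (edgeR, adjusted p = 0.377) but was called by DESeq2 (adjusted p = 0.0130), and limma on the rlog values also called Ccl1, Ppbp and Xcl1.

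**Figure D5:**
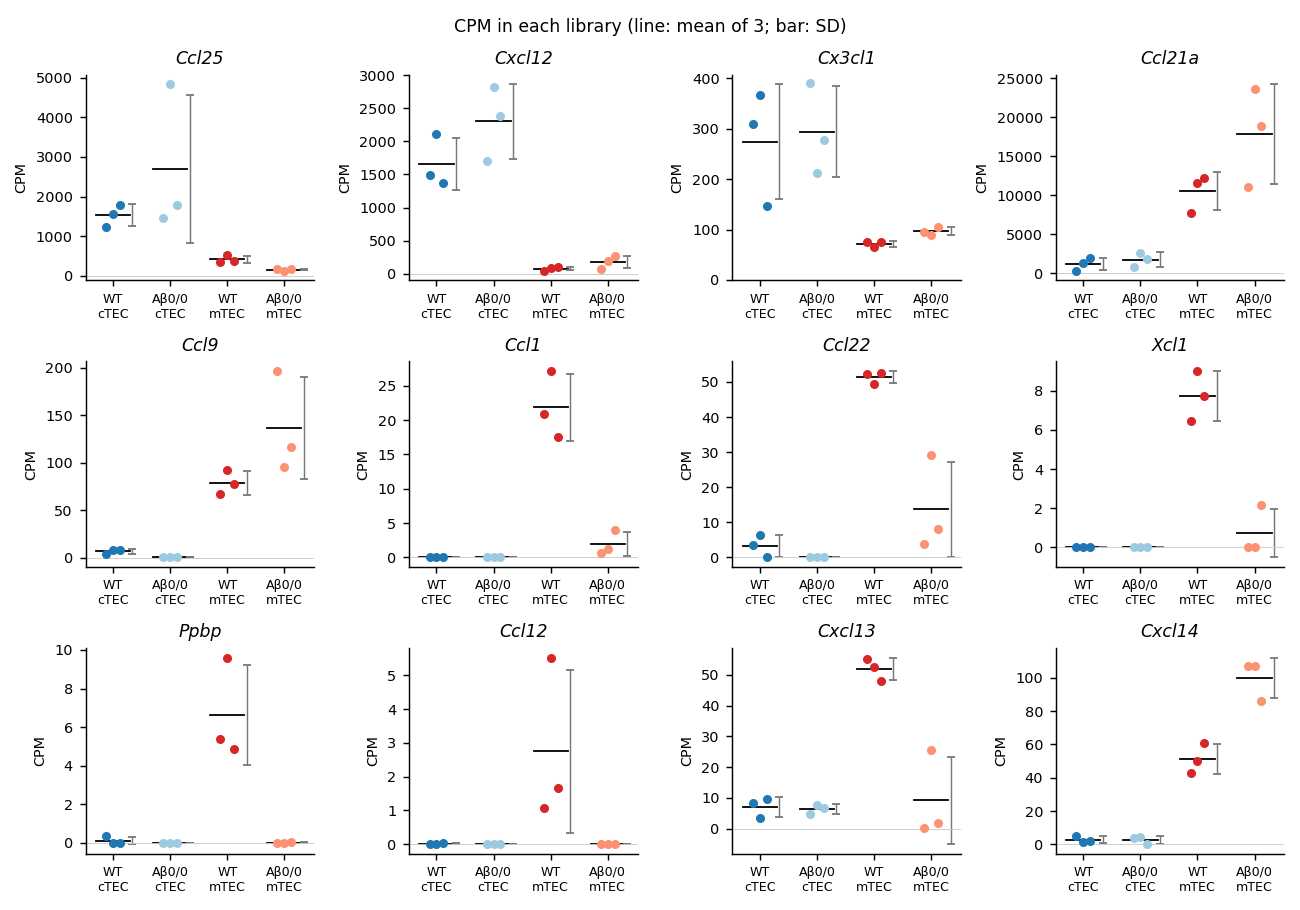
Level in CPM of 12 chemokine ligands in each library of WT and Aβ0/0 cTEC and mTEC, 1 point per library, with the mean as a line and the SD as a bar (n = 3 per group). Ccl25, Cxcl12 and Cx3cl1 are higher in cTEC, Ccl9 is lower in Aβ0/0 than in WT cTEC and higher in Aβ0/0 than in WT mTEC, and Ppbp and Ccl12 are at or near 0 outside WT mTEC.

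Most members lie in a few gene clusters, and between the genotypes in mTEC neighbours did not share 1 pattern. On chromosome 11 there are 12 members, among them the group Ccl2, Ccl7, Ccl11, Ccl12, Ccl8 and Ccl1 (82035571 to 82305690) and the group Ccl5, Ccl9, Ccl6, Ccl3 and Ccl4 (83525778 to 83664683, GRCm38). Between the subsets of WT mice, every member of both groups except Ccl7 was without overlap and higher in mTEC, as were 30.1% of all genes. Between the genotypes in mTEC, Ccl1, Ccl2 and Ccl12 of the first group were without overlap and higher in WT, whereas Ccl7, Ccl8 and Ccl11 overlapped. In the second group, Ccl5 and Ccl4 were without overlap and higher in WT and Ccl9 was without overlap and higher in Aβ0/0, while Ccl3 and Ccl6 overlapped. Of both groups, Ccl12 alone passed the adjusted threshold there (edgeR). Chromosome 5 carries 13 members, of which Ppbp and Pf4 are 2.37 kb apart: Ppbp was at or near 0 in Aβ0/0 mTEC, while Pf4 was at 18.5, 2.46 and 1.36 CPM there, against 8.02, 17.9 and 12.1 CPM in WT mTEC.

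The promoters of Ccl1 and Ccl9 are shown, since they lie in these groups on chromosome 11 and their mTEC libraries did not overlap between the genotypes, Ccl1 being higher in WT and Ccl9 in Aβ0/0. They are the 250 bases before the gene start in RefSeq (GRCm38.p6), 5′ to 3′ on the coding strand, with matches to the kappaB motif, the recognition sequence of NF-kappaB factors, in capitals.
Ccl1, chr11:82179813-82180062, minus strand: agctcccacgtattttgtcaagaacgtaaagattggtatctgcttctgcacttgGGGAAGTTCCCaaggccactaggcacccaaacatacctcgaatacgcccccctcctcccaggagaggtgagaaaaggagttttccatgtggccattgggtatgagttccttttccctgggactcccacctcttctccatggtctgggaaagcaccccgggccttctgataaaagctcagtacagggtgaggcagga
Ccl9, chr11:83578637-83578886, minus strand: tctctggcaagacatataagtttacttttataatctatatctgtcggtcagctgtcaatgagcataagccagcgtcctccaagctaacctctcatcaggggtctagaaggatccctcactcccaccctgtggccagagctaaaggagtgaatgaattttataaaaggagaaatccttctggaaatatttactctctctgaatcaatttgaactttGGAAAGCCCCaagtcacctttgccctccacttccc
The table held promoters for 29 of the 43 members, as 35 windows of 250 bases before to 50 bases after a start. The kappaB motif was searched on both strands and found in 8 of the 35 windows (22.9%), those of Ccl1, Ccl9, Ccl20, Ccl27a, Cxcl1, Cxcl2, Cxcl3 and Cxcl10, and in 8.46% of 32851 windows of all genes. The letters TATAAA, which cannot overlap a kappaB match in full, were in 11 of the 35 windows (31.4%) and 13.6% of all windows. The GAS motif bound by STAT factors, which is TTC, any 3 bases and GAA and reads the same on both strands, was in 2 (5.71%), those of Ccl17 and Cxcl14, and in 8.30% of all windows. It can overlap a kappaB match in part. A match describes the letters of a window and not a site in use. The 8 genes with a kappaB match did not all pass: Ccl1, Ccl9, Ccl20, Ccl27a, Cxcl2, Cxcl3 and Cxcl10 passed between the subsets of WT mice and Cxcl1 did not.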

How the data were processed

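RNA was extracted from sorted cTEC and mTEC of pooled mice, converted to cDNA with the SMART-Seq v4 kit, which amplifies poly-A RNA by PCR and does not mark strand, and sequenced on an Illumina HiSeq. Per the labels and the submitters' processing notes, reads were demultiplexed with bcl2fastq 2.20.0, trimmed with Trim Galore and quantified with kallisto 0.43 against mm10. The deposited estimated counts and TPM were made by the authors with kallisto for each transcript of each library, and the deposited log2 values are the authors' DESeq2 rlog values per gene.

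Of 109282 transcripts, 107987 were matched to GENCODE M21 (GRCm38), and the others, which held 0.45% to 0.512% of the counts of a library, were left out. Estimated counts were summed per gene (34547 genes) and rounded. Groups were compared by quasi-likelihood tests in R 4.3.3 with edgeR 4.0.16 (TMM, filterByExpr, robust estimation, only the 6 libraries compared, all 12 for the interaction), with Benjamini-Hochberg adjustment over all genes tested and a threshold of 0.05. The code was also run on simulated counts with a common dispersion and changes only in well-counted genes, so that run does not bear on single calls here. DESeq2 1.42.0, limma 3.58.1 on the rlog values, RLE size factors, other filters on low counts, summed copies, a fit on all 12 libraries, a replicate block and leaving out each library were alternatives. Tables were joined with pandas 2.3.3 and numpy 2.4.6 (Python 3.11.15), intervals computed with scipy 1.17.1 and plots drawn with matplotlib 3.10.9. The members, the lists of roles, receptors and markers and the tests were chosen with earlier results of these data known. Named with their values were the 6 marker ligands Ccl25, Cxcl12, Ccl19, Ccl21a, Ccl9 and Ccl1, members past the threshold in any comparison, the 10 highest by mean TPM in any group and members tested whose libraries did not overlap between the genotypes.

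Replicates are separate pools of mice, and p-values measure the spread between pools. The number of cTEC and of mTEC of each sort is given by the authors, so that libraries with one genotype and number form a pair. The main fits between the subsets and for the interaction did not use this pairing. It entered only as the replicate block among the alternatives. As a check, deviations from group means were correlated within pairs, giving 0.219, 0.0381 and 0.0822 in WT and 0.240, 0.0912 and 0.0546 in Aβ0/0. A fold against a group with no count was computed against 3 counts over the group. Ratios with 1 to 3 counts have exact 95% intervals, which cover counting error only, as reads amplified by PCR are not independent molecules. Library totals were 21710319 to 36139815 estimated counts.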

Additional observations from a re-analysis of the deposited data

Results flagged for a closer look

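The effect of genotype on Ccl9 differed between the subsets in a test whose call was lost under other settings. The term for this difference, the log2 effect of WT over Aβ0/0 in mTEC minus that in cTEC, was -4.52 in edgeR's fit on all 12 libraries (adjusted p = 0.0321). Ccl9 was higher in WT in all 3 cTEC libraries and lower in WT in all 3 mTEC libraries. The highest Aβ0/0 mTEC library, replicate 1, also had the highest sums among the Aβ0/0 mTEC libraries for markers of tuft cells (741 TPM), of dendritic cells, macrophages and B cells (744 TPM, against 124 and 108 TPM) and of erythroid cells (511 TPM, against 186 and 75.5 TPM). The part of these cells was not tested. Without this library the term was -4.10 (edgeR, adjusted p = 0.0229). With the sort as a block it was -4.37 (edgeR, adjusted p = 0.178), and it did not pass in 9 of the 12 fits that left out 1 library, with an adjusted p from 0.0553 to 0.266 (edgeR). No formal test for single outlying libraries was made in groups of 3.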

How the results depend on the processing

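Between the subsets of WT mice, 30 members passed, 19 with limma on the rlog values, 21 in the fit on all 12 libraries and 23 to 32 when 1 library was left out. In Aβ0/0 mice, 16 passed, 3 with limma and 8 to 11 without 1 library. Between the genotypes in mTEC, the 4 calls became 0 without the filter on low counts, with a minimum mean count of 10 and in the fit on all 12 libraries, 1 with limma, 10 with DESeq2 and 0 to 7 without 1 library. In cTEC, 0 became 2 with DESeq2 and 1 in the fit on all 12 libraries. For the interaction, 1 became 2 with DESeq2, 4 with limma and 0 to 1 without 1 library. Counts with RLE size factors and with copies summed stayed within 1.5 times of these. Summing Ccl21a with its copies that have no Ccl symbol was chosen after seeing the data.

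With the replicate block for the sort, 10 members passed in Aβ0/0, 28 in WT and 0 in the interaction (8 at an unadjusted p under 0.05). The authors list the yields of both genotypes under each replicate number, without saying whether these were sorted together. Between the genotypes, same-numbered mTEC libraries correlated at 0.232, 0.0799 and 0.0526 and cTEC libraries at 0.245, -0.0391 and 0.0576. With the replicate number as a block, edgeR left 0 calls in mTEC (16 at an unadjusted p under 0.05) and 0 in cTEC.

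The direction changed for Ccl19 between the genotypes in mTEC without Aβ0/0 replicate 2 (0.13, with -0.46 without replicate 1 as the other end of the range) and for Ccl22 in the interaction with limma (0.26), neither of which had passed. The summed TPM was 3.78 times as high in mTEC as in cTEC in WT and 3.48 times in Aβ0/0. These ratios were 2.87 and 2.74 in plain CPM, and 1.33 and 0.777 without Ccl21a. The cause of these changes was not tested, apart from the tests on fewer libraries or genes. Where a group had no count, as Xcl1 in WT cTEC, depth leaves the fold as a lower bound.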
